A study of Rattus norvegicus with 29 samples.

Results

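The nuclear-encoded genes of oxidative phosphorylation were followed in rat liver: the subunits of respiratory complexes I to IV and of the ATP synthase (complex V), with the assembly factors and the ATPase inhibitor whose symbols carry the same prefixes. Members were all transcript clusters of the array with a single gene symbol starting with Nduf, Uqcr, Atp5, Sdha, Sdhb, Sdhc or Sdhd, or with Cox4, Cox5, Cox6, Cox7 or Cox8. This rule used names only and no measured value. It gave 94 of 27342 transcript clusters, which stand for 83 genes. Of these clusters, 40 belonged to complex I, 7 to complex II, 9 to complex III, 19 to complex IV and 19 to complex V, with Ndufa4 counted in complex IV. Subunits made up 83 clusters, and the other 11 were assembly factors, the inhibitor Atp5if1, the supercomplex factor Cox7a2l and entries annotated as pseudogenes.

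The livers came from male Sprague-Dawley rats (stock Crl:CD) that were 6 to 7 weeks old and received a daily gavage of 2,2,5,7,8-pentamethyl-6-chromanol (PMCol) or of methylcellulose alone (vehicle). PMCol keeps the chromanol head of vitamin E and has no long side chain. Day 8 animals had received 7 doses and comprised 2000 mg/kg PMCol (n = 6) and vehicle (n = 6). Day 29 animals had received 28 doses and comprised vehicle (n = 6), 200 mg/kg PMCol (n = 6) and 2000 mg/kg PMCol (n = 5). RNA of the left liver lobe of each animal was read on 1 Affymetrix whole-transcript array, and arrays within a group are named biological replicates in the labels. The deposited values are log2 signals centred on each cluster's median over the 29 animals. A value therefore says how an animal stands against the other animals, and genes cannot be ranked against each other by abundance. The liver label was checked with 7 hepatocyte marker clusters, and all 7 were among the brightly stored ones described next.

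The decimals of the deposited values keep a trace of the size of the number before centring. By that trace, 84 of the 94 member clusters (89.4%) had stored log2 values of 8 or more in all animals, against 28.5% of all clusters. The 10 member clusters below that included Cox4i2, Cox6a2, Cox6b2, Cox8b and Cox8c, the isoforms known from lung, muscle or testis, and also Atp5me, Ndufa2, Ndufaf3, Sdhaf3 and Cox6c-ps1. The core subunits that mitochondrial DNA encodes are not followed here, since a list of 26 names for them matched 0 clusters with a single symbol.

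Oxidative phosphorylation takes electrons from NADH at complex I and from succinate at complex II, passes them through coenzyme Q, complex III, cytochrome c and complex IV to oxygen, and uses the resulting proton gradient to drive ATP synthesis by complex V. The subunits have to be made in matched amounts, and in the liver this pathway supplies the ATP for glucose production, urea synthesis and the synthesis of secreted proteins. Transcription of many nuclear-encoded subunits is known to depend on the factors NRF1, GABPA and YY1. Atp5if1 binds the ATP synthase and limits its reverse reaction, the breakdown of ATP, when the proton gradient collapses.

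The promoters of 6 genes the results turn on are shown because they are the stretches where these factors are known to act on such genes. The windows run from 250 bases before to 50 bases after the annotated start, from RefSeq on rat build GRCr8, and capitals mark every match to a searched motif. Ndufb7 and Ndufv1 fell at both days, Sdha fell at day 8, Atp5f1a and Cox5b fell at both days, and Atp5if1 rose at both days under 2000 mg/kg PMCol.
Ndufb7 (chr19:41477242-41477541, minus strand): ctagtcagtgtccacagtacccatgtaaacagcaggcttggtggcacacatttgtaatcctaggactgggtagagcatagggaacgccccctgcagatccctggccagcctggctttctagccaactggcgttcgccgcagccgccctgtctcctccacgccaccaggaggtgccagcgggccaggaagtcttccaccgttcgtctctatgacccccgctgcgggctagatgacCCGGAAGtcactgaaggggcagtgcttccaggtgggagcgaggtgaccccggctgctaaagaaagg
Ndufv1 (chr1:210734842-210735141, minus strand): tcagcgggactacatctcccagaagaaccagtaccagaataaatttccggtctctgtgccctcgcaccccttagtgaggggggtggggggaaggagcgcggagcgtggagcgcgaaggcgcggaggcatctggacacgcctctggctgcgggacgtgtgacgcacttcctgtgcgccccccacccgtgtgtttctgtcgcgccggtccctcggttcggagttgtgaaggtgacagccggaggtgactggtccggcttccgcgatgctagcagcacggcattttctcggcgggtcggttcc
Sdha (chr1:30764303-30764602, plus strand): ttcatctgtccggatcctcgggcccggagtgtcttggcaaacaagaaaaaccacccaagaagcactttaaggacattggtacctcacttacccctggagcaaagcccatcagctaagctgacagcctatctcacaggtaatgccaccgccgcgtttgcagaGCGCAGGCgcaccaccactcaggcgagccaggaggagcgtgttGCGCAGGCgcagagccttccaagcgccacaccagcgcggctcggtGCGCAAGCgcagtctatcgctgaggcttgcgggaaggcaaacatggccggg
Atp5f1a (chr18:73567287-73567586, plus strand): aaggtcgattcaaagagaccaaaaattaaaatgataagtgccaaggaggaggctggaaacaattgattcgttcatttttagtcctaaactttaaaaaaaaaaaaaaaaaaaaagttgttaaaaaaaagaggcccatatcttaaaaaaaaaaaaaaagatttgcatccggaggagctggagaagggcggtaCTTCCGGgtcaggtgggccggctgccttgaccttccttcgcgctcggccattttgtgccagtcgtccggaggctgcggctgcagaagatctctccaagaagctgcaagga
Cox5b (chr9:46417587-46417886, plus strand): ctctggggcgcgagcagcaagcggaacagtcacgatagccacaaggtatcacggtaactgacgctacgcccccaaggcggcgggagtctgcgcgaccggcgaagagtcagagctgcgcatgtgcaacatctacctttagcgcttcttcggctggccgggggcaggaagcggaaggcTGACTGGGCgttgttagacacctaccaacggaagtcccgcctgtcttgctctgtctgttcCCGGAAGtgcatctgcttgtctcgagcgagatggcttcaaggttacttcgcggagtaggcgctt
Atp5if1 (chr5:150026628-150026927, minus strand): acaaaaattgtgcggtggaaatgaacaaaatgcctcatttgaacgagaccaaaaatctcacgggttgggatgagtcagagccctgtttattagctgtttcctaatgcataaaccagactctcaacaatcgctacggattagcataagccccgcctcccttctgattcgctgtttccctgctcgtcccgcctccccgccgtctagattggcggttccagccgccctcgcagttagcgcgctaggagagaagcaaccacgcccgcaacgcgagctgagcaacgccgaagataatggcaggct

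In these windows, Ndufb7, Atp5f1a and Cox5b each held 1 match to the ETS motif CCGGAAG bound by GABPA, read on either strand. Sdha held 3 matches to GCNTGCGC, a core of the NRF1 motif, and Cox5b also held 1 match to TGACNNNGC, the antioxidant response element. Ndufv1 and Atp5if1 held no match to any of the 4 motifs searched. Over the 73 of 83 member genes with a RefSeq window, the ETS motif was found in 32.9%, against 9.22% of 27457 windows of all genes. The NRF1 core was found in 32.9% of member windows, against 9.67% of all windows. The YY1 motif AAGATGGC was found in 17.8%, against 3.44%, and the antioxidant response element in 13.7%, against 12.2%. Motifs were read on both strands, and none of the 4 contains another, although matches to the ETS and YY1 motifs can share their AAG. Member windows also had a higher median GC content (57% against 52.3%). A match describes the letters of a window and does not show a bound site.

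The first question was what 2000 mg/kg PMCol did to these genes after 7 doses. At day 8, 20 member clusters fell and 4 rose at an adjusted p under 0.05 in limma, so 25.5% of members changed, against 18.6% of all clusters. Falls made up 21.3% of members against 9.32% of all clusters, and rises made up 4.26% of members against 9.32% of all clusters. Against only the clusters stored at 8 or more, of which 16.5% fell and 19.9% rose, the members stored at 8 or more fell in 23.8% and rose in 3.57%. The median log2 fold change over the 94 member clusters was -0.08, against -0.01 over all clusters, and single members ran from -0.46 to 0.54. Of all 27342 clusters, 217 changed by more than 1 on the log2 scale, and 0 of the 94 members did. At so small a share, 0 among 94 clusters does not set the members apart. In whole liver, fewer cells of a type and less RNA per cell cannot be told apart.

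After 28 doses of 2000 mg/kg PMCol, 16 member clusters fell and 3 rose. That is 20.2% of members, against 21.6% of all clusters. Falls made up 17% of members against 9.55% of all clusters, and rises made up 3.19% of members against 12.1%. Among clusters stored at 8 or more, 16.7% of members and 16.9% of all clusters fell, whereas 3.57% of members and 23.8% of all clusters rose. The share of members that fell at day 29 was near that of all brightly stored clusters, and the share that rose was lower. The median log2 fold change of members was -0.09, against 0.00 over all clusters, with single members from -0.51 to 0.55.

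At 200 mg/kg PMCol and day 29, limma called 0 of the 94 member clusters, while 1.37% of all clusters rose and 1.42% fell (2.78% in all). At an unadjusted p under 0.05 there were 8 member clusters, 3 higher and 5 lower, which is 8.51% of members against 13.7% of all clusters. Without replicate 1 of the 200 mg/kg group, 1 member was called. With all animals the smallest adjusted p was 0.217, for Ndufa12, and the median log2 fold change of members was -0.02 (-0.027 to 0.001 when 1 animal was left out, above 0 without 200 mg/kg replicate 5). In the direct comparison of 2000 with 200 mg/kg, 3 member clusters fell and 1 rose, or 4.26% of members against 9.89% of all clusters (3.84% fell and 6.05% rose). The falls were those of Ndufb7, Ndufv1 and Atp5f1a, and the rise was that of Atp5if1.

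**Figure D1:**
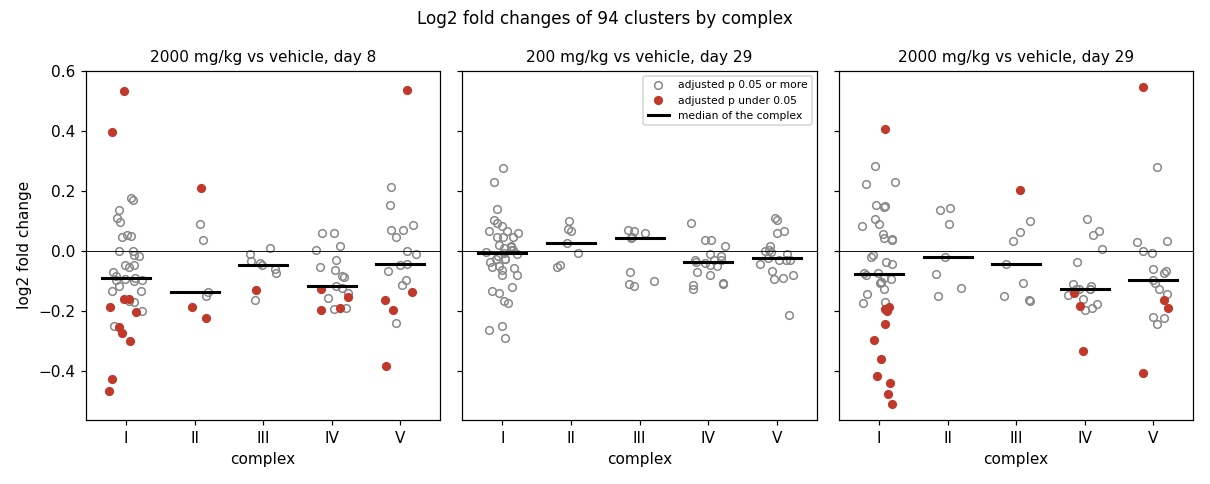
Log2 fold change (y axis) of each of the 94 member clusters, by complex (x axis), for 2000 mg/kg PMCol against vehicle at day 8 and for 200 and 2000 mg/kg PMCol against vehicle at day 29. Filled red points passed an adjusted p under 0.05 in limma, open points did not, and bars are medians. At 2000 mg/kg most filled points lie below 0, and at 200 mg/kg there are no filled points.

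Complex I, the NADH dehydrogenase, had 40 of the 94 clusters. Of these, 9 fell and 2 rose at day 8 (27.5% called), and 10 fell and 1 rose at day 29 (27.5%), with medians of -0.09 and -0.08. Falls made up 22.5% and 25% of its clusters, against 9.32% and 9.55% of all clusters. Rises made up 5% and 2.5%, against 9.32% and 12.1%. Among all clusters stored at 8 or more, 16.5% and 16.9% fell. The 6 catalytic core clusters of complex I are part of the electron path itself. Of these, Ndufv1 and Ndufs8 fell at day 8 and Ndufv1 at day 29. Ndufs1, Ndufs3, Ndufs7 and Ndufv2 were called at neither day against vehicle, with log2 fold changes from -0.14 to 0.15 at 2000 mg/kg.

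Ndufv1 carries the flavin that accepts electrons from NADH. At day 8 its centred log2 signal was -0.20 to 0.00 (median -0.13) with 2000 mg/kg PMCol, against 0.04 to 0.19 (median 0.15) with vehicle. At day 29 it was -0.04 to 0.12 (median 0.05) with vehicle and -0.04 to 0.07 (median 0.02) with 200 mg/kg, and it was -0.11, -0.16, -0.15, -0.15 and -0.21 in the 5 animals given 2000 mg/kg. The 2000 mg/kg animals lay below all vehicle animals at both days and below all 200 mg/kg animals. The log2 fold changes of 2000 mg/kg against vehicle were -0.25 ± 0.04 (SE) at day 8 and -0.20 ± 0.04 at day 29, with limma adjusted p of 7.7e-06 and 0.00032.

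Ndufs8, an iron-sulfur subunit next to the quinone site, fell at day 8. It measured -0.21 to 0.00 (median -0.11) with 2000 mg/kg PMCol, against 0.14 to 0.33 (median 0.17) with vehicle, and the groups did not overlap. The log2 fold change was -0.30 ± 0.05 (limma adjusted p = 6.7e-05). At day 29 the groups overlapped and the log2 fold change was -0.09 ± 0.05 (adjusted p = 0.27). The change in effect between days was not called, since its adjusted p was 0.17.

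The 29 accessory subunit clusters of complex I, which surround the core, gave 7 falls and 1 rise at each day. Falls made up 24.1% of these clusters and rises 3.45% at each day. Of all clusters, 9.32% and 9.55% fell and 9.32% and 12.1% rose at days 8 and 29. Among clusters stored at 8 or more, 16.5% and 16.9% fell, and 19.9% and 23.8% rose. Ndufb7, a small subunit on the intermembrane-space side, had the smallest p of all members at day 8. It measured -0.35 to -0.09 (median -0.25) with 2000 mg/kg PMCol, against 0.16 to 0.31 (median 0.20) with vehicle. At day 29 it measured 0.00 to 0.16 (median 0.09) with vehicle, -0.11 to 0.13 (median 0.02) with 200 mg/kg, and -0.18, -0.10, -0.15, -0.29 and -0.33 with 2000 mg/kg. At both days the 2000 mg/kg animals lay below every vehicle animal. Ndufb7 was 1.38-fold lower at day 8 (log2 fold change -0.46 ± 0.05, limma adjusted p = 2.9e-08) and 1.23-fold lower at day 29 (-0.30 ± 0.05, adjusted p = 5.4e-05). It was also lower with 2000 than with 200 mg/kg (-0.23 ± 0.05, adjusted p = 0.0024).

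Ndufa1, a small membrane subunit needed for assembly of the complex, fell at both days. At day 8 it measured -0.63 to -0.15 (median -0.38) with 2000 mg/kg PMCol, against -0.16 to 0.23 (median 0.09) with vehicle. At day 29 it measured 0.00 to 0.76 (median 0.36) with vehicle, -0.09 to 0.72 (median 0.12) with 200 mg/kg, and -0.13, -0.14, -0.17, -0.11 and -0.03 with 2000 mg/kg. The spread of Ndufa1 was wide in the vehicle and 200 mg/kg groups of day 29 and narrow in the 2000 mg/kg group. Its log2 fold changes were -0.43 ± 0.11 at day 8 and -0.48 ± 0.12 at day 29 (limma adjusted p of 0.0059 and 0.0030). Ndufa12 and Ndufb10 also fell at both days, by smaller amounts (-0.16 each at day 8, and -0.19 and -0.18 at day 29). The calls of Ndufa12 and Ndufb10 at day 8 were lost when certain single animals were left out, 7 animals for Ndufa12 (adjusted p up to 0.096) and 8 for Ndufb10 (up to 0.10). At day 29 the call of Ndufa12 was lost without vehicle replicates 1 and 2 (adjusted p = 0.052), and that of Ndufb10 without vehicle replicate 4 (0.065) or 2000 mg/kg replicate 4 (0.086). The Ndufb10 call was also lost with quantile normalization (0.054) or on leaving out 2000 mg/kg replicates 2 and 3 (0.068) at day 8, and in a fit of only the animals compared (0.089) at day 29.

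Other accessory subunits were called at a single day. Ndufa9 (-0.27 ± 0.07), Ndufa11 (-0.20 ± 0.05) and 1 of 2 Ndufv3 clusters (-0.18 ± 0.05) fell at day 8, the last not without 2000 mg/kg replicates 2 and 3 (-0.15, limma adjusted p = 0.11). For Ndufa9, 2000 mg/kg animals measured -0.32 to 0.12 (median -0.07) and vehicle animals 0.16 to 0.32 (median 0.20), without overlap. Ndufa2 (-0.51 ± 0.13), Ndufa6 (-0.36 ± 0.10) and Ndufa7 (-0.24 ± 0.08) fell at day 29, and the call of Ndufa7 was lost when any one of 6 animals was left out (adjusted p up to 0.091). Ndufa2 measured 0.07 to 0.88 (median 0.33) with vehicle, -0.21 to 0.55 (median 0.02) with 200 mg/kg and -0.29, 0.02, -0.24, -0.17 and -0.11 with 2000 mg/kg at day 29. All 5 animals given 2000 mg/kg lay below every vehicle animal, and the 200 mg/kg animals spanned both ranges. The Ndufs6-ps1 entry, annotated as a pseudogene, gave 2 clusters that both fell at day 29 (-0.44 ± 0.13 and -0.42 ± 0.12), and whether their probes also read Ndufs6 was not tested. The first of these calls was lost without 2000 mg/kg replicate 1 (adjusted p = 0.057).

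The rises in complex I were few. Ndufa3, a small membrane subunit, measured 0.11 to 0.51 (median 0.41) with 2000 mg/kg PMCol at day 8, against -0.55 to 0.18 (median -0.22) with vehicle. It rose 1.45-fold (log2 fold change 0.53 ± 0.15, limma adjusted p = 0.013), although the groups overlapped and its log2 fold change was 0.15 at day 29 (adjusted p = 0.57). Ndufaf4, a factor for early assembly of complex I, measured 0.16 to 0.44 (median 0.26) with 2000 mg/kg at day 8, against -0.31 to 0.12 (median -0.11) with vehicle. The Ndufaf4 groups did not overlap and the log2 fold change was 0.40 ± 0.09 (adjusted p = 0.0029), against 0.11 ± 0.10 at day 29 (adjusted p = 0.51). Ndufa10 rose at day 29 (0.41 ± 0.12, adjusted p = 0.015). It measured 0.43, 0.00, -0.05, 0.24 and 0.47 with 2000 mg/kg and -0.46 to 0.06 (median -0.22) with vehicle, and the call was lost when 2000 mg/kg replicate 1 or replicate 5 was left out (adjusted p up to 0.061).

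The other 22 complex I clusters, called in none of the comparisons, ran from -0.20 to 0.18 at day 8 and from -0.17 to 0.29 at day 29 with 2000 mg/kg PMCol. They include Ndufab1, the acyl carrier protein, at 0.05 and 0.06, and the 2 Ndufb4 clusters at 0.14 and 0.18 at day 8 and -0.09 and -0.13 at day 29.

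**Figure D2:**
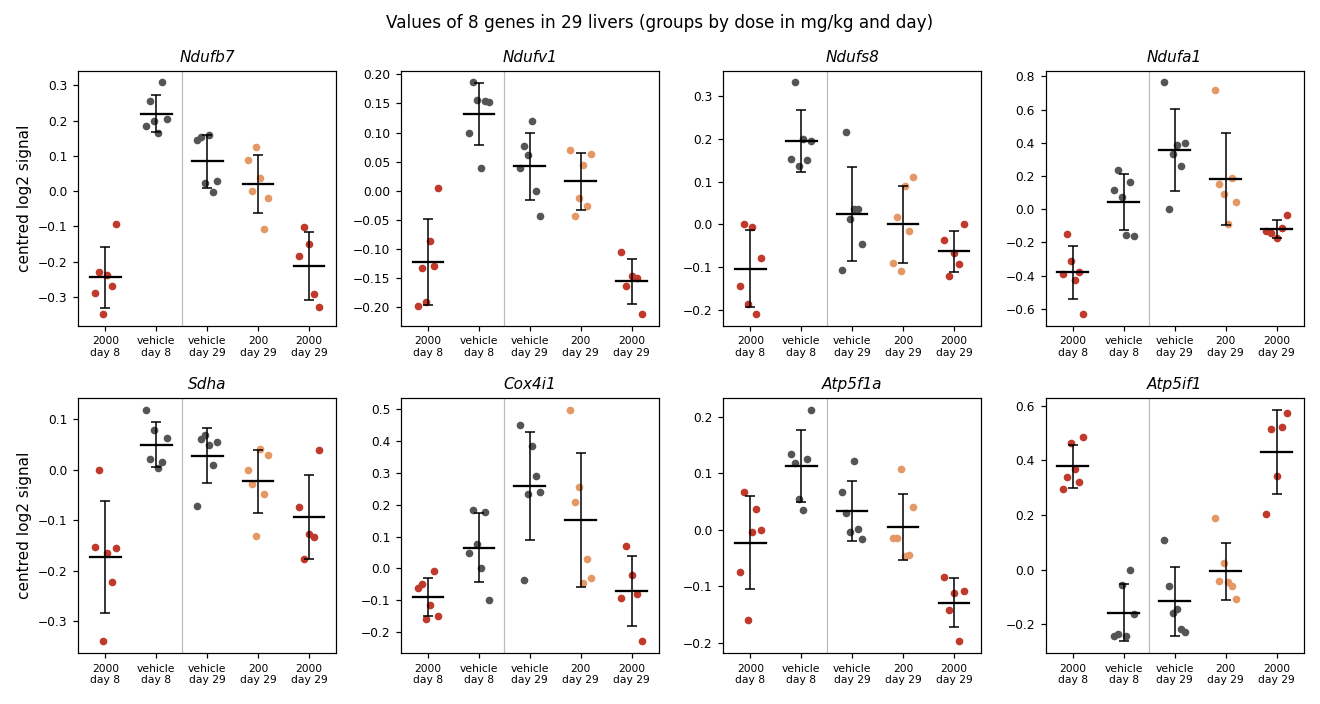
Centred log2 signal (y axis) of 8 member genes in each of the 29 animals, by group (x axis: dose in mg/kg and day), with the group mean and SD. Ndufb7 and Ndufv1 lie lower and Atp5if1 higher in 2000 mg/kg animals than in every vehicle animal of the same day.

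Complex II, succinate dehydrogenase, is the only complex that also belongs to the tricarboxylic acid cycle. Of its 4 subunit clusters, Sdha and Sdhb fell at day 8, and 0 of them were called at day 29. Over all 7 clusters of complex II, 28.6% fell and 14.3% rose at day 8, against 9.32% each way over all clusters. At day 29, 0 of the 7 were called, against 21.6% of all clusters. Sdha, the flavoprotein that oxidises succinate, measured -0.34 to 0.00 (median -0.16) with 2000 mg/kg PMCol at day 8, against 0.00 to 0.12 (median 0.04) with vehicle. The groups did not overlap, although the highest treated and the lowest vehicle animal were both near 0. The log2 fold change was -0.22 ± 0.04 (limma adjusted p = 0.00056), and at day 29 it was -0.12 ± 0.05 (adjusted p = 0.063). Sdhb, the iron-sulfur subunit, gave -0.18 ± 0.06 at day 8 (adjusted p = 0.042), a call that 11 of 23 alternative settings did not keep, 9 of them without 1 animal (adjusted p up to 0.12).

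The membrane anchors Sdhc and Sdhd were not called, with log2 fold changes of 0.04 and -0.14 at day 8 and 0.09 and -0.08 at day 29. Of the 3 assembly factors of complex II, Sdhaf3, which helps insert the iron-sulfur centres of Sdhb, rose at day 8 (0.21 ± 0.06, limma adjusted p = 0.0096). It measured 0.05 to 0.30 (median 0.19) with 2000 mg/kg and -0.27 to 0.03 (median 0.00) with vehicle, without overlap. Sdhaf1 and Sdhaf2 were not called.

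Complex III, the cytochrome bc1 complex, gave 1 fall at day 8 and 1 rise at day 29 among 9 clusters. Each is 11.1% of its clusters, near the 9.32% of all clusters that fell at day 8 and the 12.1% that rose at day 29. Uqcrfs1, the Rieske iron-sulfur protein, measured -0.25 to 0.01 (median -0.10) with 2000 mg/kg PMCol at day 8, against -0.07 to 0.09 (median 0.03) with vehicle. The groups overlapped, the log2 fold change was -0.13 ± 0.04 (limma adjusted p = 0.039), and 12 of 23 alternative settings did not keep the call, 8 of them without 1 animal (adjusted p up to 0.12). Uqcr11, a small peripheral subunit, measured 0.03, 0.06, 0.07, 0.07 and 0.11 with 2000 mg/kg at day 29, against -0.21 to -0.06 (median -0.13) with vehicle, and -0.20 to 0.07 (median -0.08) with 200 mg/kg. All 5 animals given 2000 mg/kg lay above every vehicle animal, and the log2 fold change was 0.20 ± 0.06 (adjusted p = 0.017).

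The large core proteins Uqcrc1 and Uqcrc2, which line the matrix side, were called in no comparison. Their log2 fold changes were -0.03 (95% interval -0.14 to 0.07) and 0.01 (-0.09 to 0.11) at day 8, and 0.06 (-0.05 to 0.18) and 0.10 (0.00 to 0.20) at day 29. Uqcrb was read by 3 clusters, with day 29 log2 fold changes from -0.17 to -0.15, and Uqcrh and Uqcrq were not called either. Cyc1, the remaining nuclear-encoded catalytic protein of this complex, matched no cluster with a single symbol. Cycs, the cytochrome c that carries electrons on to complex IV, was read by 2 clusters outside the member prefixes, and both rose at day 8 (0.18 and 0.19, adjusted p of 0.019 and 0.014) and were not called at day 29.

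Complex IV, cytochrome c oxidase, gave falls only: 4 of 19 clusters at day 8 and 3 at day 29, with medians of -0.12 and -0.13. The falls were 21.1% and 15.8% of its clusters, against 9.32% and 9.55% of all clusters. Among all clusters stored at 8 or more, 16.5% and 16.9% fell, so the day 29 share was near theirs. Rises made up 9.32% and 12.1% of all clusters. Cox5b, a nuclear-encoded subunit that binds zinc, fell at both days (-0.20 ± 0.06 and -0.18 ± 0.06, limma adjusted p of 0.016 and 0.030). Ndufa4, first described in complex I and now placed in complex IV, also fell at both days (-0.15 ± 0.04 and -0.14 ± 0.04). The day 29 calls of both genes were lost when any one of 5 animals was left out, with adjusted p up to 0.087 for Cox5b and 0.061 for Ndufa4, and also without vehicle replicates 1 and 2 (0.055 and 0.063). Without 2000 mg/kg replicates 2 and 3, Cox5b was not called at day 8 (0.058). Ndufa4 measured -0.22 to 0.04 (median -0.14) with 2000 mg/kg at day 8, against -0.04 to 0.09 (median 0.04) with vehicle. At day 29 all 5 animals given 2000 mg/kg (-0.01, -0.09, -0.05, -0.08 and -0.08) lay below the vehicle animals (0.01 to 0.18).

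Cox4i1, the liver form of the regulatory subunit 4, measured -0.04 to 0.45 (median 0.26) with vehicle, -0.05 to 0.50 (median 0.12) with 200 mg/kg and -0.09, 0.07, -0.02, -0.08 and -0.23 with 2000 mg/kg at day 29. Its groups overlapped, with a log2 fold change of -0.33 ± 0.08 at 2000 mg/kg (adjusted p = 0.0043). At day 8 it measured -0.16 to -0.01 (median -0.09) with 2000 mg/kg and -0.10 to 0.18 (median 0.06) with vehicle, and was not called (-0.15 ± 0.08, adjusted p = 0.20). Cox6a1, the liver form of subunit 6a, fell at day 8 (-0.19 ± 0.05, adjusted p = 0.0076). Of the 2 clusters of Cox5a, which gave nearly the same values, 1 passed at day 8 (-0.12 ± 0.04, adjusted p = 0.048) and the other did not (adjusted p = 0.086). That call was lost in 15 of 23 alternative settings, 8 of them without 1 animal (adjusted p up to 0.14).

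Cox7a2, the liver form of subunit 7a, had 2 clusters at -0.19 each at both days, with adjusted p between 0.079 and 0.14. At day 29, vehicle replicate 1 stood low in both clusters (-0.47 and -0.40, next vehicle animals -0.02 and 0.00). Over both clusters, animals given 2000 mg/kg measured -0.25 to 0.17 at day 8, and vehicle animals 0.08 to 0.25. The 5 clusters of isoforms from other tissues (Cox4i2, Cox6a2, Cox6b2, Cox8b and Cox8c) were called in 0 comparisons, with log2 fold changes between -0.18 and 0.01 at 2000 mg/kg. They were also all stored below 8, and 0 of 7 skeletal and heart muscle markers were called or stored at 8 or more.

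Complex V, the ATP synthase, gave 4 falls and 1 rise among 19 clusters at day 8 and 3 falls and 1 rise at day 29, with medians of -0.04 and -0.09. The falls were 21.1% and 15.8% of its clusters, against 9.32% and 9.55% of all clusters. Among all clusters stored at 8 or more, 16.5% and 16.9% fell. The rises were 5.26% at each day, against 9.32% and 12.1% of all clusters. In the catalytic F1 head, Atp5f1a, the alpha subunit, fell at both days. It measured -0.16 to 0.07 (median 0.00) with 2000 mg/kg at day 8, against 0.03 to 0.21 (median 0.12) with vehicle. At day 29 it measured -0.02 to 0.12 (median 0.02) with vehicle, -0.05 to 0.11 (median -0.01) with 200 mg/kg, and -0.08, -0.14, -0.11, -0.20 and -0.11 with 2000 mg/kg. The 2000 mg/kg animals of day 29 lay below all animals of both other groups of that day. The log2 fold changes were -0.14 ± 0.04 at day 8 (limma adjusted p = 0.014) and -0.16 ± 0.04 at day 29 (adjusted p = 0.0046). Without 2000 mg/kg replicate 3 the day 8 value was -0.11 and was not called (limma adjusted p = 0.0502). The fall against 200 mg/kg (-0.13, adjusted p = 0.036) was lost in 10 of 22 alternative settings, 5 of them without 1 animal (adjusted p up to 0.11).

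Its partner Atp5f1b, the beta subunit that carries the catalytic sites, was not called: the log2 fold changes were -0.01 (95% interval -0.09 to 0.08) at day 8 and 0.03 (-0.06 to 0.12) at day 29. Atp5f1c, Atp5f1d and Atp5f1e, the other F1 subunits, were not called either. In the membrane part, Atp5mg (subunit g) fell at day 8, where it measured -0.45 to -0.07 (median -0.32) with 2000 mg/kg and -0.06 to 0.34 (median 0.08) with vehicle, without overlap. Its log2 fold change was -0.38 ± 0.09 (adjusted p = 0.0016), and at day 29 it was -0.24 ± 0.09 (adjusted p = 0.052). Atp5me (subunit e) fell at day 29, where it measured 0.03 to 0.68 (median 0.33) with vehicle, -0.12 to 0.62 (median 0.04) with 200 mg/kg and -0.05, -0.06, 0.01, -0.21 and 0.00 with 2000 mg/kg. The 2000 mg/kg animals lay below every vehicle animal (log2 fold change -0.41 ± 0.10, adjusted p = 0.0039).

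In the peripheral stalk, which holds the head still, Atp5pb fell at day 8 (-0.16 ± 0.05) and 1 of 2 Atp5pd clusters at day 29 (-0.19 ± 0.07). The Atp5pd call was lost when any one of 6 animals was left out (adjusted p up to 0.11). In the c-ring, which turns with the passing protons, 1 of 2 Atp5mc2 clusters fell at day 8 (-0.19 ± 0.05), while Atp5mc1 and Atp5mc3 were not called. The 2 clusters of Atp5mk, a small membrane subunit, stood at 0.15 and 0.21 at day 8 and at -0.22 and -0.22 at day 29. Atp5mk had the smallest p of all members for the change in effect between the days, and it did not pass the test (limma adjusted p = 0.12).

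Atp5if1, the ATPase inhibitor, went the other way and had the largest rise of any member at both days. At day 8 it measured 0.29 to 0.49 (median 0.35) with 2000 mg/kg PMCol, against -0.24 to 0.00 (median -0.20) with vehicle. At day 29 it measured -0.23 to 0.11 (median -0.15) with vehicle, -0.11 to 0.19 (median -0.04) with 200 mg/kg, and 0.20, 0.52, 0.34, 0.52 and 0.57 with 2000 mg/kg. The 2000 mg/kg animals lay above every vehicle animal at both days and above every 200 mg/kg animal. It rose 1.45-fold at day 8 (log2 fold change 0.54 ± 0.06, limma adjusted p = 5.4e-07) and 1.46-fold at day 29 (0.55 ± 0.07, adjusted p = 7.6e-07). It was 1.35-fold higher with 2000 than with 200 mg/kg (0.44 ± 0.07, adjusted p = 7.0e-05), and the 200 mg/kg animals were not called against vehicle (0.11 ± 0.06, adjusted p = 0.50). It was the single member called as rising at both days.

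With both 2000 mg/kg comparisons taken side by side, 8 genes fell at both days (Atp5f1a, Cox5b, Ndufa1, Ndufa12, Ndufa4, Ndufb10, Ndufb7 and Ndufv1). In opposite directions, 0 members were called. The same counts were not made over all clusters, of which 9.32% fell at day 8 and 9.55% at day 29. These counts therefore do not set the members apart. Of the 8, Ndufa1, Ndufb7 and Ndufv1 kept their calls at both days in every alternative setting run. Setting aside the stricter threshold, 16 of 24 calls at day 8 (12 falls and 4 rises) and 11 of 19 at day 29 (9 falls and 2 rises) were kept in every setting. At day 8 alone 12 clusters passed as falling, and at day 29 alone 8. A call at one day and not at the other does not show that the effects differed. The test of the difference, the 2000 mg/kg effect at day 29 minus that at day 8, called 0 of 94 members and 0.775% of all clusters, with 13 members at an unadjusted p under 0.05. Over all 6 comparisons, 35 member clusters were called at least once and 59 never. The matching share of all clusters was not counted, so these numbers do not set the members apart.

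Groups that did not overlap were counted without regard to the test. At day 8, 6 member clusters were lower in all 2000 mg/kg animals than in all vehicle animals (5.19% of all clusters were) and 3 were higher (5.84% of all clusters). At day 29, 9 were lower (4.99% of all clusters) and 2 higher (6.43% of all clusters). Sdhb was among the 9 at day 29 without being called (adjusted p = 0.12).

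Vehicle animals of the later day were set against those of the earlier day to see what age and longer dosing with vehicle gave without PMCol. Of the members, 1 fell and 0 rose, against 1.77% and 0.962% of all clusters (2.73% in all). Median log2 fold changes were -0.08 for complex I, -0.10 for II, -0.21 for III, 0.01 for IV and 0.04 for V. In complex III, 8 of 9 clusters were below 0, although 0 were called. These medians were not tested. Ndufs1, the largest iron-sulfur subunit of complex I, measured -0.46 to 0.00 (median -0.12) in vehicle animals of day 29, against 0.03 to 0.21 (median 0.09) in vehicle animals of day 8. Its log2 fold change was -0.27 ± 0.07 (limma adjusted p = 0.040), and 10 of 24 alternative settings did not keep the call, 8 of them without 1 animal (adjusted p up to 0.10). The unadjusted test called more members, 35 of 94 (37.2%, against 18.3% of all clusters), with 26 lower and 9 higher at day 29. Leaving out single vehicle animals of day 29 moved the adjusted count between 0 and 19, the highest without replicate 2.

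The mean over all 94 members gave the group picture for each animal. At day 8 it ran from -0.14 to 0.08 with 2000 mg/kg PMCol and from 0.01 to 0.09 with vehicle, so the groups overlapped. At day 29 it ran from -0.02 to 0.06 with vehicle, from -0.05 to 0.05 with 200 mg/kg and from -0.06 to -0.03 with 2000 mg/kg. The 2000 mg/kg animals of day 29 lay below every vehicle animal and overlapped with the 200 mg/kg animals. At day 8, replicates 2 and 3 of 2000 mg/kg held the highest and the lowest mean, and leaving out both gave 4 rises and 14 falls.

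Some animals stood apart, over all clusters as well as over members. The SD over members of the deviation from the group mean was 0.25 in vehicle day 29 replicate 1, 0.19 in vehicle day 29 replicate 2 and 0.21 in 200 mg/kg day 29 replicate 1, against 0.06 to 0.13 in the other 26 animals. Over all clusters the same SD was 0.215, 0.169 and 0.165 in these 3 animals, against 0.105 to 0.158 in the others. In vehicle replicate 1, Ndufb6 stood at -1.32 and Ndufa2 at 0.88, while in vehicle replicate 2 of that day Ndufb6 stood at 0.17 and Ndufa2 at 0.13. In 200 mg/kg replicate 1, Ndufb6 stood at -0.68 and Ndufa2 at 0.55. RNA quality of these animals is not given in the sources used here, so its part in these values was not tested. Without both vehicle animals, 19 members fell and 3 rose at 2000 mg/kg and day 29. Their values without both animals were -0.46 for Ndufa1, -0.43 for Ndufa2, -0.40 for Atp5me, -0.36 for Cox4i1, -0.26 for Ndufb7, -0.19 for Ndufv1 and 0.62 for Atp5if1, all still past the threshold. Without these 3 animals, Atp5me also fell at 200 mg/kg (-0.30, limma adjusted p = 0.013).

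**Figure D3:**
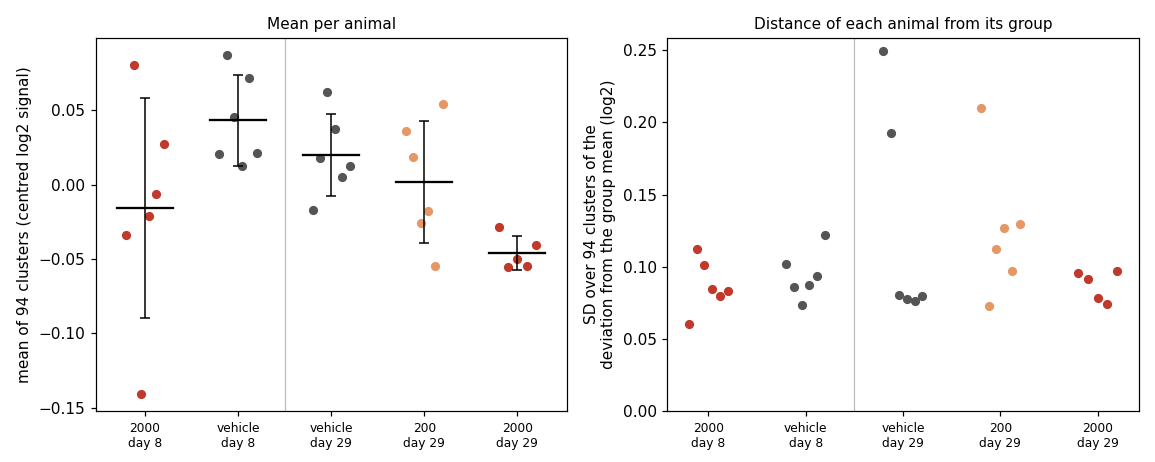
Left, the mean centred log2 signal of the 94 member clusters in each animal, with group mean and SD. Right, the SD over the 94 clusters of each animal's deviation from its group mean. Means of the 5 animals given 2000 mg/kg at day 29 lie below 0, and 3 animals of the other day 29 groups stand above 0.19 on the right.

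Markers of liver cell types moved in the same comparisons, in which 9.32% of all clusters fell and 9.32% rose at day 8, and 9.55% fell and 12.1% rose at day 29. At day 8, 5 of 7 hepatocyte marker clusters fell with 2000 mg/kg PMCol (median over the 7, -0.20), and their mean per animal ran from -0.31 to -0.10 with 2000 mg/kg and from -0.13 to 0.06 with vehicle. All 10 Kupffer cell and macrophage marker clusters fell as well, by a median of -1.03, with means of -0.64 to 0.10 with 2000 mg/kg and 0.39 to 1.27 with vehicle. The same 10 were lower in vehicle animals of day 29 than in those of day 8, by a median of -1.02. Also at day 8, 2 of 3 endothelial clusters fell (median -0.41), 2 of 5 erythrocyte clusters fell (-0.31), 3 of 8 stellate cell clusters fell and 1 rose (-0.17), 1 of 7 T, B and NK cell clusters fell and 1 of 2 bile duct clusters rose. At day 29, 3 of 7 hepatocyte clusters and 7 of 8 stellate cell clusters fell with 2000 mg/kg, and 1 of 2 bile duct clusters rose. The Kupffer cell, endothelial, erythrocyte, and T, B and NK cell lists had 0 calls at that day. The part of these shifts in the member changes was not tested.

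The other mitochondrial genes were described from lists chosen by function, to set the members beside the rest of the organelle. Of all clusters, 9.32% rose and 9.32% fell at day 8, and 12.1% rose and 9.55% fell at day 29. Of those stored at 8 or more, 19.9% rose and 16.5% fell at day 8, and 23.8% rose and 16.9% fell at day 29. These shares stand beside the counts of every list below. Of 71 clusters of mitochondrial ribosomal proteins, 17 rose and 4 fell at day 8, and 19 rose and 4 fell at day 29. The share that rose was little above that of the brightly stored clusters, and the share that fell was lower. The list of 17 tricarboxylic acid cycle clusters also holds Pdha1 of pyruvate dehydrogenase, which feeds the cycle. In this list 3 rose and 1 fell at day 8, and 8 rose and 1 fell at day 29. Of the 17 clusters, 16 were stored at 8 or more, and the day 8 share that rose was below that of all such clusters. Pdha1, the E1 alpha subunit, rose at both days in both of its clusters (0.35 and 0.34 at day 8, 0.42 and 0.41 at day 29). Its clusters were all but 1 of the day 8 rises. Sucla2, a succinyl-CoA ligase subunit, fell at both days (-0.41 and -0.35). Median log2 fold changes were 0.08 and 0.07 for the mitochondrial ribosome and 0.06 and 0.15 for the cycle, against -0.08 and -0.09 for the members. The mean centred log2 signal of the cycle list was 0.11 with 2000 mg/kg and 0.04 with vehicle at day 8, and 0.01 and -0.15 at day 29. In the day 29 vehicle group, replicate 1 stood at -0.36 and the other animals ran from -0.22 to 0.02. The part of the lower vehicle mean at day 29 in the rises of that day was not tested.

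Outside the mitochondrion, 79 of 267 cytosolic ribosomal protein clusters rose and 0 fell at day 8, and 85 rose and 2 fell at day 29. Proteasome subunits rose in 30 of 43 clusters at day 8 and in 22 at day 29, with 0 falls. The 267 ribosomal clusters carried 80 gene symbols, so their count is not a count of independent genes.

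**Figure D4:**
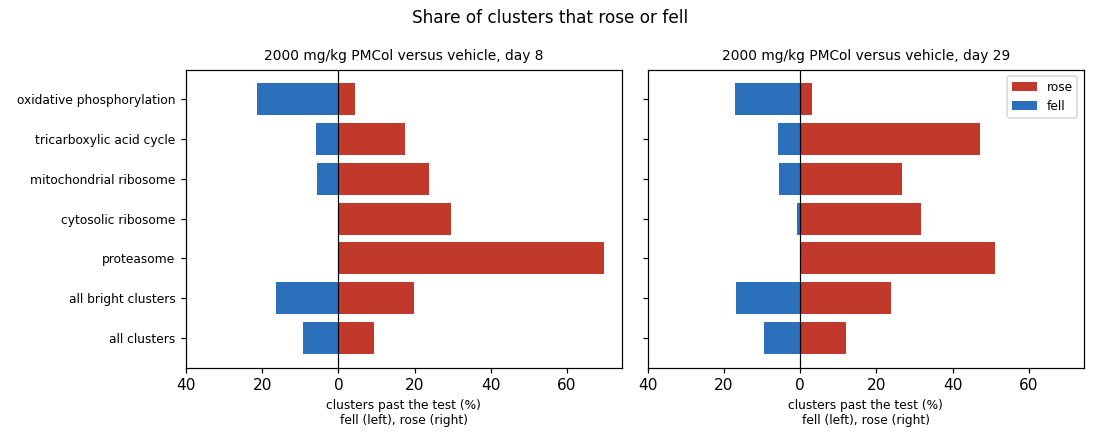
Percent of clusters that fell (blue, to the left) or rose (red, to the right) with 2000 mg/kg PMCol against vehicle at day 8 and day 29, for the 94 oxidative phosphorylation clusters, 4 other gene lists, the clusters stored at 8 or more (bright) and all clusters. The oxidative phosphorylation bars run mostly left (21.3% and 17% fell), and those of the other 4 lists run mostly right.

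Factors that build the complexes but lie outside the member prefixes were called in both directions. Of 32 such clusters, 5 rose and 3 fell at day 8, and 6 rose and 3 fell at day 29. The falls were near the shares over all clusters (9.32% and 9.55%). The rises lay between the shares over all clusters (9.32% and 12.1%) and over clusters stored at 8 or more (19.9% and 23.8%). Of the 32, 25 were stored at 8 or more. Lyrm7, a complex III assembly factor, rose at both days (0.53 and 0.59, limma adjusted p of 0.0011 and 0.00049), as did Acad9, a complex I assembly factor (0.25 and 0.39). Fmc1, a factor for the ATP synthase, fell at both days (-0.23 and -0.32), and so did Surf1, a complex IV assembly factor (-0.23 and -0.18). Among members, 2 of 6 assembly factor clusters rose at day 8 (33.3%, against 9.32% of all clusters) and 0 were called at day 29.

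Among 20 clusters of regulators of mitochondrial gene expression, 4 rose and 1 fell at day 8, and 3 rose and 2 fell at day 29. Ssbp1, the mitochondrial single-strand DNA-binding protein, rose by 0.36 and 0.46 and Tfb2m, a mitochondrial transcription factor, by 0.52 and 0.40. Polg, the mitochondrial DNA polymerase, fell (-0.58 and -0.65). Tfam, which packages mitochondrial DNA and starts its transcription, rose at day 8 (0.35) and was not called at day 29 (0.09). Of the nuclear factors, Nrf1 fell at day 29 (-0.22, limma adjusted p = 0.0065), while Ppargc1a, Gabpa and Esrra were called at neither day, with log2 fold changes between -0.07 and 0.15.

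Genes that feed or follow the chain gave further values. Of 18 clusters for coenzyme Q synthesis and electron entry, 3 rose and 3 fell at day 8, and 3 rose and 6 fell at day 29. Coq10a and Coq8a, both needed for coenzyme Q function or synthesis, fell at both days (-0.61 and -0.61, and -0.60 and -0.56), and Etfdh, which passes electrons from fatty acid oxidation to coenzyme Q, fell at day 29 (-0.31). Of 13 clusters of adenine nucleotide and phosphate carriers, uncoupling proteins, outer membrane channels and mitochondrial creatine kinase, 1 rose and 0 fell at day 8, and 1 rose and 1 fell at day 29. The rises were those of the channel genes Vdac3 at day 8 (0.17) and Vdac2 in 1 of its 2 clusters at day 29 (0.26), and the fall was that of Slc25a4, an ADP/ATP carrier (-0.29, limma adjusted p = 0.0014). Among 19 clusters of the mitochondrial stress response, 9 rose and 1 fell at day 8, and 7 rose and 2 fell at day 29, with the chaperone genes Hspd1 (0.51 and 0.49 in its 2 clusters) and Hspe1 (0.49) rising at day 8.

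Genes with more than 1 cluster were read more than once: 10 genes had 21 clusters. Clusters of the same gene differed in call at day 8 for Atp5mc2, Cox5a and Ndufv3 and at day 29 for Atp5pd. The probes of such clusters may read near-identical copies, so these calls are uncertain.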

How the data were processed

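Liver RNA of 29 rats was hybridised to arrays, 1 per animal. The authors deposited log2 values for 27342 transcript clusters in 1 table, and each cluster has a median of 0 over the animals. PLIER and MAS5 are named in the submitters' processing notes with no version and no role. How arrays were normalized and centred, and whether an offset came before the log, is not given in the sources used here. Any positive offset would shrink fold changes of dim genes. Array medians ran from -0.02 to 0.03. Scan dates were not used, so batches were not tested.

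Gene names came from the platform annotation. A further 1 cluster carried several symbols, one of them of this family, and was left out. The values as deposited were fitted with limma 3.58.1 in R 4.3.3, with a mean for each of 5 groups and plain eBayes. Tests were two-sided, p-values were adjusted over all 27342 clusters by Benjamini-Hochberg within each comparison, and an adjusted p under 0.05 counted as a call. Errors in the report are standard errors of that fit unless named otherwise, and intervals are 95% intervals. The fit was run on simulated data with independent, normally distributed noise and the same spread in every animal. Animals that stand apart and genes that move together were not simulated. Stored size was read from the rounding of the deposited decimals, which 27324 clusters allowed. The number of arrays limits the precision. The p-values set a difference between groups against the spread between animals, estimated over all 5 groups.

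The members and lists were chosen with earlier results of these data known. Values per animal were given for the 5 largest called rises and falls of each comparison, the member with the smallest p in each complex, and a fixed set of subunits and tissue isoforms. Per-animal values of Ndufa4 and Ndufb6 stand outside this rule and were chosen after the values were seen. For other lists, up to 4 called genes were named, with Cycs, Tfam, Ppargc1a, Nrf1, Gabpa and Esrra whatever their change. Promoter windows came from RefSeq (GRCr8). Alternatives covered normalization, centring, feature sets, variance settings, array weights, the replicate number as a block, the threshold and leaving out animals. Plots were drawn with matplotlib 3.10.9.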

Additional observations from a re-analysis of the deposited data

Results flagged for a closer look

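In 230 groups of member clusters or complex means, 16 (6.96%) had 1 animal far from the others of its group, where chance gives about 5%. No cause was tested. Vehicle day 29 replicate 1 held 4 of them: both Cox7a2 clusters (-0.47 and -0.40, next animals -0.02 and 0.00), Ndufa2 (0.88, next 0.37) and the mean over complex III (-0.16, next -0.03). Replicate 1 of 200 mg/kg at day 29 stood high for Ndufa1 (0.72, next 0.19) and Cox4i2 (0.18, next -0.02), replicate 5 stood low for both Cox5a clusters (-0.25 and -0.23, next 0.00 and -0.04), and replicate 6 high for Cox6a1 (0.18, next 0.01). With 2000 mg/kg at day 29, replicate 5 stood low for Cox6b2 (-0.19, next -0.01) and replicate 4 high for Atp5mc1 (0.11, next 0.03).

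In 2000 mg/kg animals of day 8, replicate 6 stood high for Cox8c (0.18, next 0.00). In vehicle animals of day 8, replicate 1 stood low for Cox6a1 (-0.0747, next 0.0904), replicate 2 high for Ndufs8 (0.33, next 0.20), replicate 6 low for Sdhaf3 (-0.27, next -0.01) and replicate 5 high for the mean over complex IV (0.0836, next 0.0466). The day 8 calls of Cox6a1, Ndufs8 and Sdhaf3 were kept without each of these animals, with limma adjusted p up to 0.024, 0.00032 and 0.035 over all single animals left out.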

How the results depend on the processing

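Counts of called members at 2000 mg/kg stayed within 1.5 times the reported 24 (day 8) and 19 (day 29), except at an adjusted p of 0.01, where 14 and 8 passed. Leaving out 1 animal gave 19 to 25 at day 8, 15 to 23 at day 29, 0 to 1 at 200 mg/kg (1 without 200 mg/kg replicate 1), 3 to 6 for 2000 against 200 mg/kg and 0 to 0 for the change in effect between days. The vehicle comparison between days was the least stable, at 0 to 19 against the reported 1, with 19 without vehicle day 29 replicate 2. It gave 0 with only the animals compared or at 0.01, 2 with quantile normalization or trend and robust settings, 3 with centred arrays, single-symbol clusters or 1 cluster per gene, and 9 with array weights. The change in effect gave 2 calls with array weights, against 0. With the replicate number as a block the vehicle comparison gave 4, no other count moved by over 1.5 times, and the day 8 calls of Ndufb10, Uqcrfs1 and Cox5a were among those lost. The numbers did not pair the animals: deviations of 56 same-numbered pairs correlated at -0.28 to 0.30 (median 0.01), and 3 of 29 animals matched best their own number. Chosen after seeing the data, leaving out vehicle day 29 replicates 1 and 2 gave 2 for the vehicle comparison and 2 for the change in effect. Leaving out 200 mg/kg replicate 1 as well gave 11 and 2, and 1 at 200 mg/kg. Brightly stored clusters gave 4 in the vehicle comparison. Medians over members stayed within -0.10 to -0.05 at day 8 and -0.10 to -0.08 at day 29. No called member changed direction in any alternative run, and the causes of these shifts were not tested. No offset or level is known, so changes of the 10 clusters stored below 8 may be understated.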
